A study of Mus musculus with 6 samples.

Results

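Cyclic nucleotide signalling genes were looked up in H3K27me3 profiles of mouse granulosa cells (GCs), the somatic cells that surround the oocyte and make estradiol. The members were the mouse protein-coding genes whose symbols name phosphodiesterases, adenylyl and guanylyl cyclases, subunits of protein kinases A and G, A-kinase anchoring proteins or Rap guanine nucleotide exchange factors, with Creb1, Crem, Creb5 and Atf1 added. This gave 78 members among 21031 protein-coding genes with a curated RefSeq transcript. H3K27me3, trimethylated lysine 27 of histone H3, is a Polycomb mark of silent chromatin and was mapped by chromatin immunoprecipitation and sequencing (ChIP-seq). Cultured GCs of wild type C57BL/6J mice aged 8 to 9 weeks received no agent (control, 3 samples) or 25 nM dihydrotestosterone (DHT), an androgen that aromatase does not convert to estrogen, for 24 h (3 samples). The labels give 30 mice for 6 dishes, so cells of several mice were pooled, and the methods of the study give another number of mice.

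Cyclic AMP and cyclic GMP are small intracellular messengers. In GCs the receptors for FSH and LH act through the stimulatory G protein on adenylyl cyclases, which make cyclic AMP. Protein kinase A and the exchange factors RAPGEF3 and RAPGEF4 (EPAC proteins) bind it, kinase A phosphorylates CREB1, and phosphodiesterases end the signal. Guanylyl cyclases make cyclic GMP, which passes from GCs to the oocyte and holds meiosis in arrest until the LH surge. The lists do not show which cyclase makes that cyclic GMP. A-kinase anchoring proteins tether kinase A to sites in the cell. Not every symbol names such a protein, and the following are examples. Pde4dip, Pde6d and Pde12 do not encode phosphodiesterases of cyclic AMP or cyclic GMP. RAPGEF1 and RAPGEF5 are Rap exchange factors that lack the cyclic AMP control of the EPAC proteins.

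The processed data held 1 pooled peak list per group, with 16345 peaks in control and 3975 peaks after DHT, and lists of gene symbols that the authors derived from them. A member could therefore be scored as listed or not listed, with no level, no replicate error and no test between the groups. Sequencing depth per sample is unknown, and a mark in fewer cells and less mark per cell cannot be told apart. The pools also differed in peak strength. The median fold enrichment over local background was 3.46 in control and 4.21 after DHT, and 61.4% of control peaks but 34.3% of DHT peaks had a −log10 q-value under 2. The part of peak calling in the counts given here was not tested. Among 7 granulosa cell markers, a gene body peak was listed for Fshr (gene span 216 kb) in both groups. Cyp19a1 (102 kb) was listed only in control and Nr5a2 (118 kb) only after DHT. Foxl2 (2.52 kb), Amh (2.44 kb), Inha (3.29 kb) and Inhba (27.4 kb) had no peak. Among markers of other cells, 1 of 3 immune markers (Ptprc) and 1 of 3 endothelial markers (Pecam1) were in both lists. Of the oocyte markers 0 of 3, and of the theca and stroma markers 0 of 4, were in either. Over all protein-coding genes, 15.5% were in either list and 3.01% in both. The marker counts were not set beside genes of like span. The lists hold no RNA level, so the labelled cell type could not be checked by expression.

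Peaks in the gene body were recorded for members of every branch of the pathway in control, and for fewer members after DHT. In control, 34 of 78 members were listed (43.6%, 95% Wilson interval 33.1 to 54.6%), where 13.6% of all protein-coding genes were. After DHT, 17 of 78 members were listed (21.8%, interval 14.1 to 32.2%), where 4.96% of all protein-coding genes were. The intervals cover counting error only. The number after DHT was 50% of the control number for members, 36.6% for all protein-coding genes and 24.3% for peaks. Counts of genes and of peaks are unlike measures, and these percentages take no account of gene length. Genes of like span, described below, gave 29.7 members in control and 12.5 after DHT. By status, 23 members were in the control list alone (10.6% of all protein-coding genes), 11 in both lists (3.01%), 6 in the DHT list alone (1.95%) and 38 in neither.

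The members are long genes. The median span of members in GRCm38.p6, from the first to the last base of the annotated transcripts, was 86.3 kb, compared with 17.7 kb for other protein-coding genes. Among those other genes the share in the control list rose with span, from 1.75% under 20 kb to 97.8% at 500 kb or more. Protein-coding genes were therefore put into 20 classes of span of nearly equal size, and each member was given the share of other genes listed in its own class. Genes of like span, called genes of like length here, gave 29.7 members for control and 12.5 for DHT, beside 34 and 17 observed, which are ratios of 1.15 and 1.36. The shares from genes of like span, 38.1% and 16.0%, both lay inside the Wilson intervals of the observed shares. This depended on the measure of length. With classes of exon length in place of span, the shares were 24.9% and 9.81%, below both intervals, and the ratios were 1.75 and 2.22. The lists score peaks anywhere in the gene body, by the gene bounds the authors used with mm9, which are not given here. Span in GRCm38.p6 stands in for that stretch, and for some members it includes predicted transcripts. Classes of span by curated transcripts alone gave ratios of 1.15 for control and 1.39 for DHT. Classes of exon length leave out introns and do not match genes for that stretch. By span, for both lists together the members numbered 11 beside 9.25 from like length, for the control list alone 23 beside 20.4, and for the DHT list alone 6 beside 3.23. With exon length the ratio for both lists was 2.11.

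**Figure D1:**
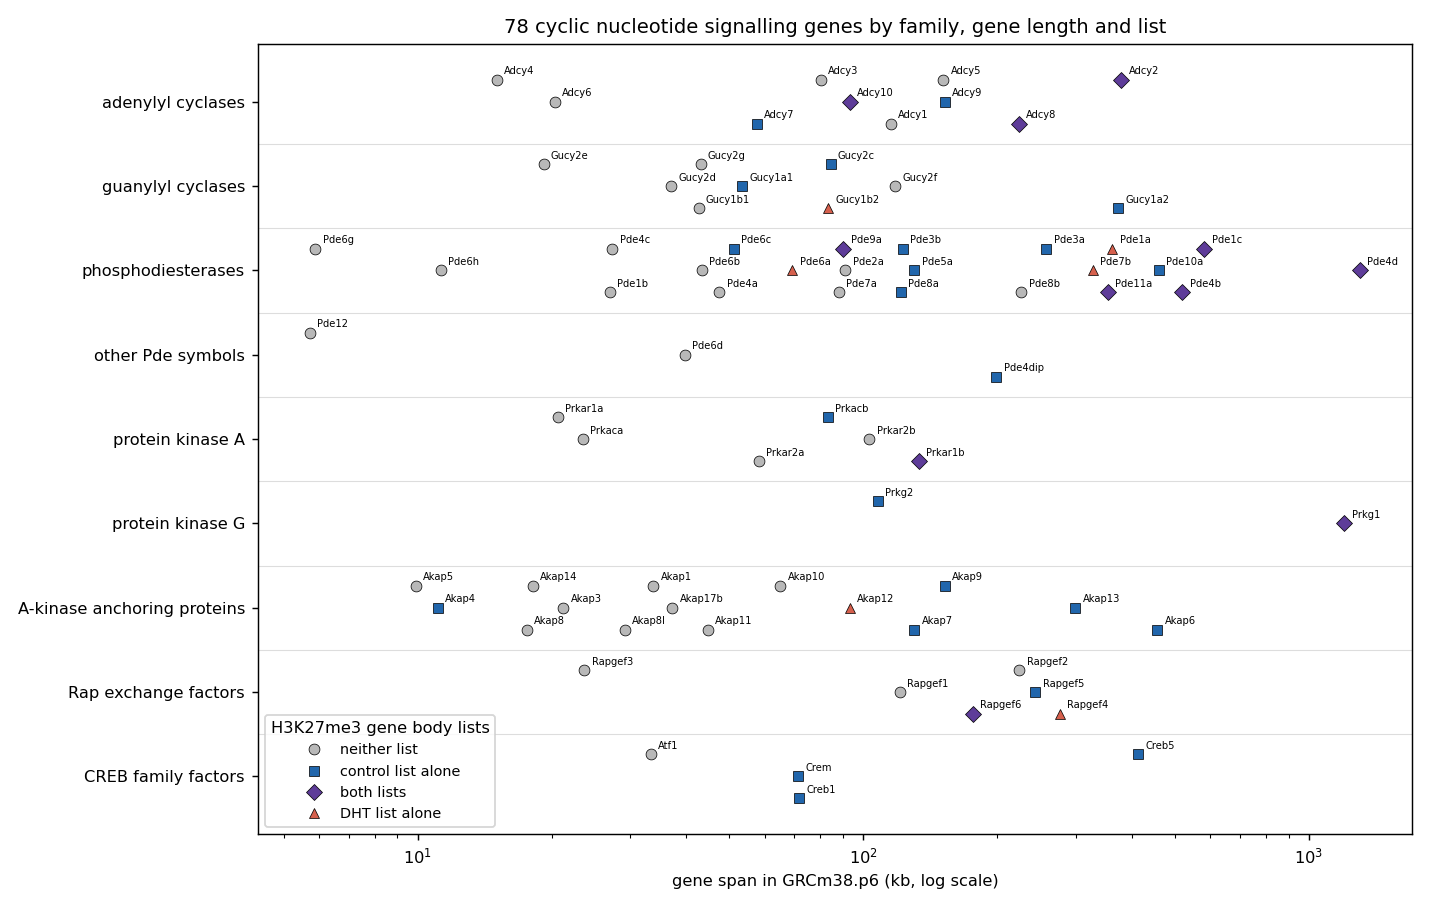
Each point is 1 of the 78 members, placed by family (vertical axis) and by gene span in kb on a log scale (horizontal axis), with the marker giving its status in the control and DHT gene body lists. Listed members lie mostly to the right: the 40 listed members had a median span of 152 kb and the 38 unlisted members 37.2 kb.

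The overlap of the lists was set beside that of genes of like span. Of the 40 members in either list (15.5% of all protein-coding genes were in either), 23 were in the control list alone, a share of 57.5% with an interval of 42.2 to 71.5%. That share was 68% over all protein-coding genes in either list and 62.1% at like length. Of the 34 control members, 11 were also listed after DHT (32.4%, interval 19.1 to 49.2%), beside 22.2% of all control genes and 31.2% at like length. Of the 17 DHT members, 11 were also listed in control (64.7%, interval 41.3 to 82.7%), beside 60.6% of all DHT genes and 74.1% at like length.

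Few members under 50 kb were listed. Under 20 kb, 1 of 9 members was in the control list (11.1%, others 1.75%), and from 20 to 50 kb 0 of 18 were (others 10.7%). From 50 to 100 kb, 9 of 17 members were listed in control (52.9%) and 5 after DHT (29.4%), beside 25.7% and 7.26% of other genes. From 100 to 200 kb, 10 of 15 members were listed in control (66.7%, others 48.5%) and 2 after DHT (13.3%, others 17.1%). From 200 to 500 kb, 10 of 15 were listed in control (66.7%, others 75.3%) and 6 after DHT (40%, others 35.4%). All 4 members of 500 kb or more were in both lists, where 97.8% of such genes were listed in control and 64.1% after DHT. By curated transcripts alone, Pde1c (300 kb) and Pde4b (353 kb) would fall below that limit. Members thus lay above other genes in some ranges of span and below them in others, on at most 18 members per range. In control they were above under 20 kb, from 50 to 200 kb and at 500 kb or more. They were below from 20 to 50 kb and from 200 to 500 kb. After DHT they were above from 50 to 100 kb and at 200 kb or more, and below in the other ranges.

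**Figure D2:**
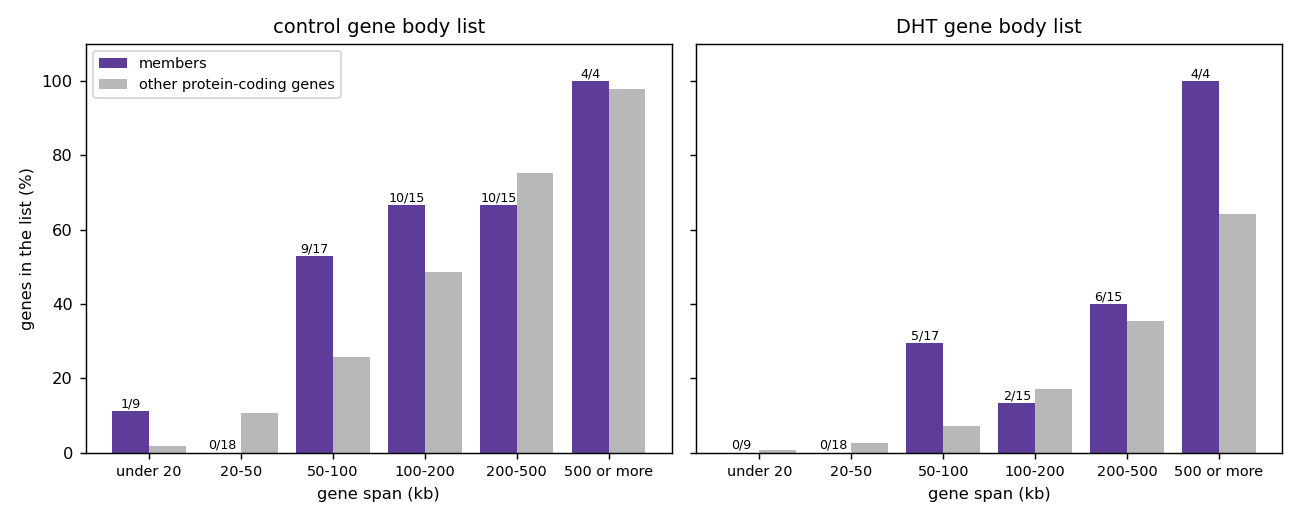
Bars give the percentage of genes listed in control (left) and after DHT (right) for 6 ranges of gene span in kb, with members and other protein-coding genes side by side. In both panels the share rises with span in other genes, from 1.75% to 97.8% in control and from 0.590% to 64.1% after DHT.

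Adenylyl cyclases, the enzymes that make cyclic AMP, had 5 of 10 members in the control list (4.06 from like length) and 3 in the DHT list (1.62 from like length). Adcy2 (380 kb), whose enzyme is stimulated by G protein beta-gamma subunits, Adcy8 (223 kb), a calcium-stimulated cyclase, and Adcy10 (93.3 kb), the bicarbonate-sensitive soluble cyclase, were in both lists. Adcy7 (57.8 kb) and Adcy9 (152 kb) were in the control list alone. Adcy5, at 151 kb nearly as long as Adcy9, was in neither list, nor were Adcy1, Adcy3, Adcy4 and Adcy6. No adenylyl cyclase was in the DHT list alone, where 1.95% of all protein-coding genes were.

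Guanylyl cyclases, which make cyclic GMP, had 3 of 9 members in the control list (2.64 from like length) and 1 in the DHT list (0.960). The control members were both alpha subunits of the nitric oxide-sensitive enzyme, Gucy1a1 (53.5 kb) and Gucy1a2 (373 kb), and Gucy2c (84.5 kb), the receptor for guanylin. Their beta partner Gucy1b1 (42.7 kb) was in neither list. Gucy1b2 (83.4 kb), which encodes another beta subunit, was in the DHT list alone. The annotated span of Gucy1b2 overlaps Rnaseh2b, a gene of the control list, and its span by curated transcripts alone was 63.6 kb. The longest guanylyl cyclase without a peak was Gucy2f (118 kb), a photoreceptor enzyme on the X chromosome.

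Phosphodiesterases, which degrade cyclic nucleotides, were the largest family, with every Pde6 gene except Pde6d counted in it. The family had 11 of 23 members in the control list (10.7 from like length) and 8 in the DHT list (4.76 from like length). Those in both lists were the cyclic AMP-specific Pde4d (1302 kb) and Pde4b (520 kb), the calmodulin-dependent Pde1c (583 kb), Pde11a (353 kb), which degrades both nucleotides, and the cyclic GMP-specific Pde9a (90.2 kb). In the DHT list alone were the calmodulin-dependent Pde1a (362 kb), the cyclic AMP-specific Pde7b (328 kb) and Pde6a (69.3 kb), a subunit of the rod photoreceptor enzyme. The 6 in the control list alone were Pde10a, Pde3a, Pde3b, Pde5a, Pde8a and Pde6c. Of these, Pde3a encodes the phosphodiesterase of the oocyte, Pde5a an enzyme specific for cyclic GMP, and Pde6c (51.2 kb) the cone photoreceptor enzyme. Pde8b, which encodes a cyclic AMP-specific enzyme, was the longest member in neither list at 226 kb. In its class of span, 190 to 2390 kb, 79.6% of other genes were listed in control and 40.6% after DHT. Among the Pde symbols that name other proteins, Pde4dip was in the control list alone, and Pde6d and Pde12 were in neither.

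Protein kinase A had 2 of 6 subunit genes in the control list (1.48 from like length) and 1 in the DHT list (0.468). Prkar1b (133 kb), a regulatory subunit, was in both lists, and Prkacb (83.4 kb), a catalytic subunit, in the control list alone. Prkaca, Prkar1a, Prkar2a and Prkar2b were in neither. Both protein kinase G genes were in the control list, with 1.12 from like length. Prkg1 (1201 kb) was also in the DHT list, and Prkg2 (108 kb) was not.

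A-kinase anchoring proteins had 5 of 15 members in the control list (3.87 from like length) and 1 in the DHT list (1.53 from like length). None was in both lists, where 3.01% of all protein-coding genes were. Akap6, Akap13, Akap9, Akap7 and Akap4 were in the control list alone. Akap4, an X-linked gene for a protein of the sperm tail, was the shortest listed member at 11.1 kb, in a class of span in which 2.38% of other genes were in the control list. Akap12 (93.1 kb), which encodes the scaffold gravin, was in the DHT list alone.

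Rap exchange factors had 2 of 6 members in each list (3.49 from like length in control and 1.59 after DHT). Rapgef6 (176 kb) was in both lists, Rapgef5 (243 kb) in the control list alone and Rapgef4 (276 kb), one of the EPAC genes, in the DHT list alone. Rapgef2 (224 kb) and Rapgef1 (121 kb) were among the 5 longest members in neither list. The span of Rapgef2 includes predicted transcripts and was 83.4 kb by curated transcripts, and it covers 4921511C10Rik, a gene of the control list. Of the CREB family, 3 of 4 genes were in the control list (1.40 from like length) and 0 in the DHT list (0.590 from like length). These were Creb5 (413 kb), Creb1 (71.8 kb) and Crem (71.4 kb), while Atf1 (33.4 kb) was in neither.

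**Figure D3:**
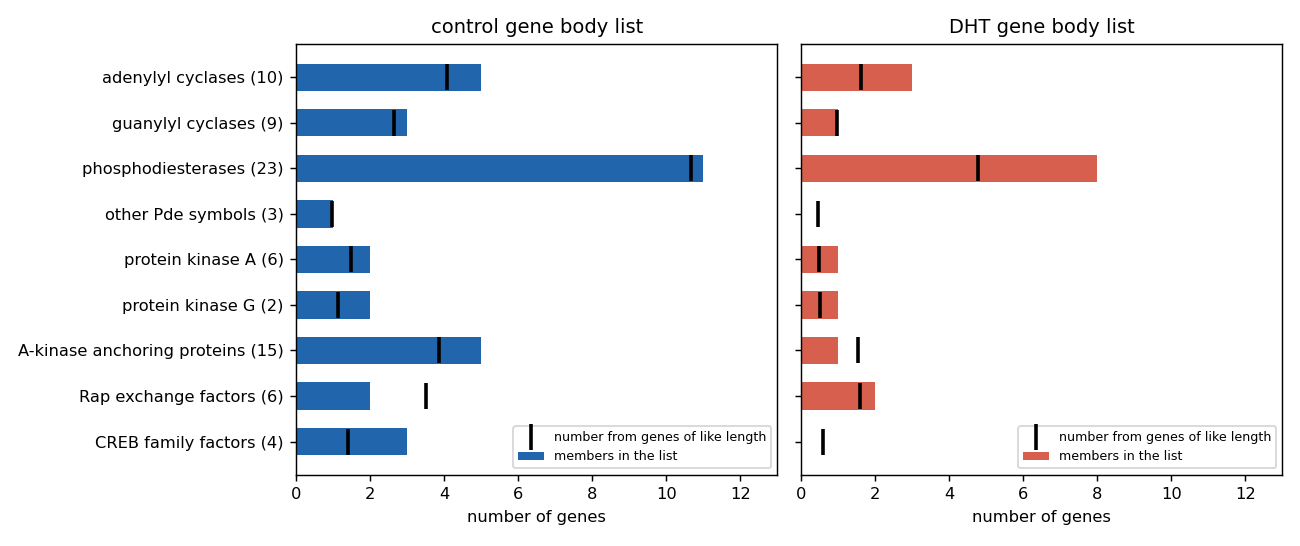
Bars give the number of members of each family listed in control (left) and after DHT (right), and the black tick gives the number obtained from genes of like length. Counts are small: the phosphodiesterases had 11 and 8 listed members, and no other family had more than 5 in a list.

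Related genes of unlike length were set against each other in 18 groups of paralogues. In the control list 3 groups were listed whole (Pde3a with Pde3b, Gucy1a1 with Gucy1a2, and Prkg1 with Prkg2), 4 had no listed gene (Pde7, Prkar2, Adcy5 with Adcy6, and Rapgef3 with Rapgef4), and 11 were mixed. In 7 of the 11 mixed groups every listed gene had a longer span than every unlisted one, and in 4 of the 11 it had a longer exon length. Examples were Pde4b and Pde4d beside Pde4a (47.5 kb) and Pde4c (27.4 kb), Prkar1b beside Prkar1a (20.6 kb), Prkacb beside Prkaca (23.5 kb), and Pde1c beside Pde1a (362 kb) and the shorter Pde1b. The same held for Adcy8 beside Adcy1 and Adcy3, for Adcy2 and Adcy7 beside Adcy4, and for Creb1 and Crem beside Atf1. It did not hold for Pde6, Pde8, the Gucy2 genes, or Rapgef2 with Rapgef6. In the DHT list 10 groups were mixed and 8 had no listed gene, and the listed genes were the longer ones in 9 of the 10. The exception was Rapgef2 with Rapgef6. By curated transcripts alone, Rapgef2 spans 83.4 kb and the listed Rapgef6 176 kb. In groups this small, some would show the pattern whatever the order of lengths, and that number was not computed for either list.

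Base composition was compared as a feature that did not enter the choice of members. The median GC content of the span was 42.0% in listed and 45.6% in unlisted members, beside 41.8% and 46.4% in other protein-coding genes. Within 50 to 200 kb, where the medians of span were 93.2 kb for 22 listed members and 97.2 kb for 10 unlisted members, GC content was 43.3% and 45.3%. Other genes of that range had 41.8% and 43.9%, so the direction was shared. The median spans of those other genes were 102 kb if listed and 76.5 kb if unlisted, so they were not alike in length. At 50 kb or more, 39 of 51 members were in either list (76.5%, others 48.8%), and under 50 kb 1 of 27 was (3.70%, others 5.37%). Among those of at least 50 kb, 32 of 39 members with a GC content under 45% were listed (82.1%, others 56.3%), as were 7 of 12 with a higher GC content (58.3%, others 32.0%). The limits of 50 kb and 45% were chosen after the values were seen, and the members in the first of these classes were longer than the other genes, with a median of 176 kb beside 105 kb.

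**Figure D4:**
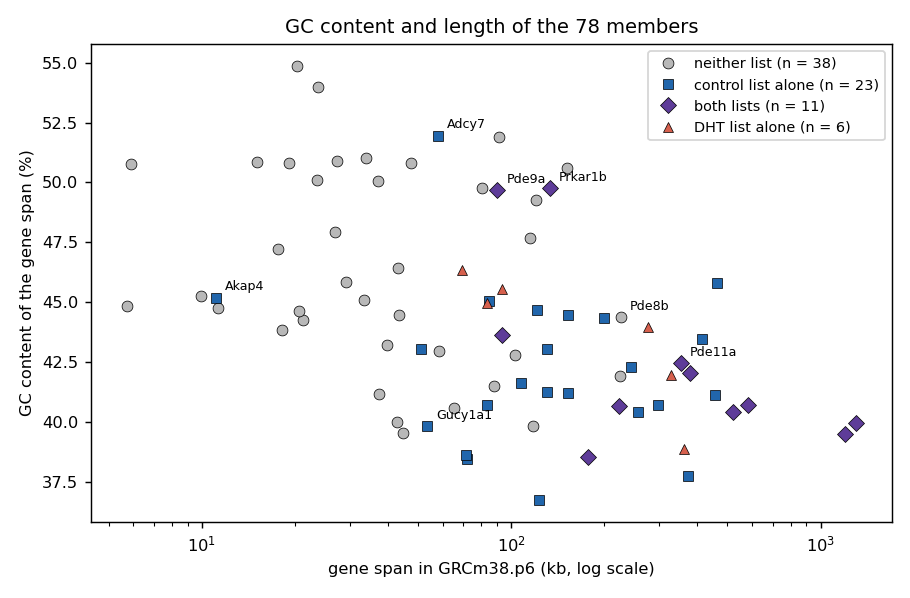
Each point is 1 member, with gene span in kb on a log scale (horizontal axis) and GC content of the span in percent (vertical axis), and the marker gives its status in the lists. Members in both lists lie at spans of 90.2 to 1302 kb, and members in neither list reach down to 5.73 kb and up to 226 kb.

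No member was listed with a peak within 1 kb of its start site. The promoter lists held 0 of 78 members in control, where 0.637% of all protein-coding genes were listed, and 0 of 78 after DHT, where 0.195% were. Genes of like length gave 0.616 and 0.158 members, so counts of 0 lie close to the background, and the Wilson interval of 0 of 78 reaches 4.69%.

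The authors also deposited lists of genes whose RNA rose or fell with DHT and which either held a peak in the gene body or had chromatin contacts with an H3K27me3-marked enhancer. They kept enhancers whose mark ran opposite to the RNA, so the direction in those lists was set by the selection. Pde11a was listed as upregulated with a peak in its gene body (0.0999% of protein-coding genes) and as upregulated with an enhancer link (0.281%). It was the only member in either, and its gene body was listed in both groups. Gucy1a1 was the only member among downregulated genes with a gene body peak (0.0666%), and its gene body was listed in control alone. That deposited list holds 15 symbols, more than the text of the study counts, and it does not say in which group a peak lay or whether the mark rose or fell. Of the downregulated genes linked to an enhancer (0.147%), 0 were members. The lists give no RNA level, fold change or error.

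The promoters of Pde11a and Gucy1a1, the members in lists of regulated genes, are shown with those of Creb5 and Prkar1a, the members that hold the full cyclic AMP response element (CRE), TGACGTCA, in a RefSeq promoter. Each is 1 promoter in GRCm38.p6 from 250 bases before to 50 bases after a start site, written 5′ to 3′ on the strand of the gene, and capitals mark TGACG or ACGTG on either strand, which overlap in Creb5. They lie at chr2:76338889-76339188 (Pde11a, minus strand), chr3:82145024-82145323 (Gucy1a1, minus strand), chr6:53287053-53287352 (Creb5, plus strand) and chr11:109650612-109650911 (Prkar1a, plus strand).
Pde11a: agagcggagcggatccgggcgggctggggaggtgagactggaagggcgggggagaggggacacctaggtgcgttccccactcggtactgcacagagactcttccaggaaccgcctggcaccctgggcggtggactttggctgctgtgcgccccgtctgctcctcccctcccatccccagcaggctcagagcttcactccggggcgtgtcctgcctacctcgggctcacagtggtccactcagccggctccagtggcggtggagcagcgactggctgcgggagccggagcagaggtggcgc
Gucy1a1: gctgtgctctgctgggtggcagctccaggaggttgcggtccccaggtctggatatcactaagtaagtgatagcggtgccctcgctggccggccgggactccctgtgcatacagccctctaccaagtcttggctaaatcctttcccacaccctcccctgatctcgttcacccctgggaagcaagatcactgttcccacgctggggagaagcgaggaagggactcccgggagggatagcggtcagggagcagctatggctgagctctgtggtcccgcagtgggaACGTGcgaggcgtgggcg
Creb5: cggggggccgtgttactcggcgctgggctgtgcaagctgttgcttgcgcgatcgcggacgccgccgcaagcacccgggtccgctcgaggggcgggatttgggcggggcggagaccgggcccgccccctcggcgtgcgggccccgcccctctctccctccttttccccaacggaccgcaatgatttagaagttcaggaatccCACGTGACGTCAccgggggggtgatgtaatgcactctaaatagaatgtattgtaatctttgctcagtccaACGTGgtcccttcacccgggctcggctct
Prkar1a: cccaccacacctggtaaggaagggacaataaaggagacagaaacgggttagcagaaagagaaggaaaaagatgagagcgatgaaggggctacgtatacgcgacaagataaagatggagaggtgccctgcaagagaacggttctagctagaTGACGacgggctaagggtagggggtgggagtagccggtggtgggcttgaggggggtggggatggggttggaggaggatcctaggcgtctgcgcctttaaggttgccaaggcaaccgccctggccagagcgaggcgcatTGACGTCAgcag
All 4 genes were outside both promoter lists. The Pde11a promoter had a GC content of 69.3% and 20 CpG sites and held neither motif, and the Gucy1a1 promoter shown held 1 ACGTG. Gucy1a1 has another RefSeq promoter, at chr3:82145601-82145900, which held 0 of either motif. Prkar1a has 6 RefSeq promoters, and 1 that overlaps the promoter shown, at chr11:109650699-109650998, also holds the CRE. Creb5 has 2 RefSeq promoters. The CRE was found in 3 member promoters, the Creb5 promoter shown and these overlapping Prkar1a promoters, and not in the other promoters of either gene.

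Motifs were counted on both strands in the 114 promoters of the 65 members that matched a RefSeq promoter, beside 20488 promoters of 16853 genes. The CRE, TGACGTCA, was in 3 member promoters (2.63%) and in 472 of all 20488. Its part TGACG, which lies within the CRE, was in 25 member promoters (21.9%) and in 24.2% of all. The core of the hypoxia response element, ACGTG, was in 24 (21.1%) and in 21.2% of all. The full palindromic consensus of the androgen response element was in 0 member promoters and in 2 of all promoters. The member shares thus lay close to those of all promoters for each motif, and a match is a match of letters only.

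Other genes of the pathway, from a list of 55 of which 54 matched the annotation, were scored the same way. In control 14 of 54 had a gene body peak (25.9%, 11.8 genes from like length), after DHT 6 of 54 had one (11.1%, 4.48 genes from like length), and 0 were in a promoter list. In both lists were Fshr, the FSH receptor, Gnas, the stimulatory G protein alpha subunit, Abcc4, an exporter of cyclic nucleotides, and Bves, a membrane protein that binds cyclic AMP. Gnao1, a G protein alpha subunit, and Nos1, a nitric oxide synthase, were in the DHT list alone. Lhcgr, the LH receptor, was in the control list alone and in both lists of upregulated genes. Nos2, an inducible nitric oxide synthase, was linked to an enhancer among upregulated genes and had no gene body peak in either list.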

How the data were processed

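H3K27me3 ChIP-seq of 3 control and 3 DHT samples was analysed from the deposited files. Per the methods of the study, the authors mapped reads to mm9 with Bowtie2 (version 2.3.4), kept unique reads and called broad peaks with MACS2 (version 2.1.1) at a q-value of 0.05 or less. How replicates were combined and whether input was used is not given in the sources used here. The deposited peak lists hold a score, a fold enrichment (a ratio to local background), and −log10 p-values and −log10 q-values. The deposited gene lists hold symbols only. The authors took promoters as 1 kb on either side of a start site.

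Symbols were matched to RefSeq genes of GRCm38.p6: 3139 of 3144 control and 1143 of 1146 DHT gene body symbols. Because that assembly differs from mm9, peaks were not placed on genes again, and the reference gave only spans, base composition and promoter sequence. Gene spans by curated transcripts, exon length, other numbers of length classes, other backgrounds and subsets of members were alternatives. Wilson intervals (95%) cover counting error only. The calculation from like length was run on simulated lists with hits placed by span, without and with a set excess in members. That checks the calculation only, and whether real peaks follow span was not tested. Named genes were all members in any list, with values for those in lists of regulated genes, in both lists, in the DHT list alone, the 5 longest in neither and the 5 shortest in the control list, and for paralogue groups; pathway genes were named when in a list of regulated genes or the DHT list, except for a result that is not reported here. Members and lists were chosen with earlier results of these data known. Python 3.11.15, pandas 2.3.3, scipy 1.17.1 and matplotlib 3.10.9 were used.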

Additional observations from a re-analysis of the deposited data

How the results depend on the processing

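No paired analysis was possible because each group has 1 pooled peak list, and leaving out a replicate was not possible for the same reason. Of 67 alternative values for 11 results, 62 were labelled as close to the reported value and 5 as moved. All 5 came from exon length in place of gene span, which gave ratios to genes of like length of 1.75 for the control list, 2.22 for the DHT list and 2.11 for both lists, a ratio of listed to unlisted median length of 1.45 in place of 4.10, and 4 in place of 7 paralogue groups in which the listed genes were the longer ones. Over all alternatives the ratio ranged from 1.12 to 1.75 for the control list, from 1.19 to 2.22 for the DHT list, from 0.891 to 2.11 for both lists and from 0.853 to 1.01 for the share in the control list alone. Without the 4 members whose span, predicted transcripts included, was over 500 kb, the ratio for both lists was 0.891 in place of 1.19. That for the share in the control list alone was 1.01 in place of 0.926. These values were labelled as close, though they lay on the other side of a ratio of 1. The span of curated transcripts, an alternative chosen after seeing the data, gave 8 paralogue groups. Depth is unknown, so whether a member outside a list lacks the mark or was not detected cannot be told apart.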
